A study of Mus musculus with 5 samples.

Results

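Chemokines are small secreted proteins that direct the migration of cells, and their receptors are G protein-coupled receptors on the migrating cell. The 57 genes examined here, 20 receptors and 37 ligands, were all protein-coding genes of the mm9 annotation whose symbol is Ccl, Cxcl, Ccr or Cxcr followed by a number, together with Cx3cl1, Cx3cr1, Xcl1, Xcr1 and Ccrl2, out of 22238 protein-coding gene symbols. For each, every DNase-hypersensitive peak with its summit in the gene body or within 20 kb of it was taken. Open chromatin was mapped by DNase-seq in naïve CD8+ T cells sorted from spleen as GFP+TCRβ+CD62L+CD44lo-med cells, from mice of 6 to 12 weeks and of either sex on a C57BL/6 background. All mice carried hCD2-Cre, active in T cells, and a Rosa26 GFP reporter that marks Cre activity. WT mice had intact Tcf7 and Lef1 (3 replicates) and dKO mice carried floxed alleles of both genes, Tcf7 fl/fl Lef1 fl/fl, so that the sorted cells lacked the transcription factors Tcf1 and Lef1 (2 replicates). Excision by hCD2-Cre is stated as 80 to 95%, which is why GFP was used in the sort. The replicates of a genotype had been pooled before peaks were called, so each genotype gave 1 list of peaks. These lists hold no value per replicate, and the comparisons below therefore have no spread between replicates and no test between genotypes.

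Naïve T cells leave the blood through lymph node venules under the guidance of Ccr7, which reads Ccl19 and Ccl21, and of Cxcr4, which reads Cxcl12. Ccr9, the receptor for Ccl25, guides thymic progenitors and gut-homing T cells. Cxcr3, Cxcr6, Ccr2 and Cx3cr1 appear on effector and memory CD8+ T cells and take them to inflamed tissue, whereas Ccr4, Ccr6, Ccr8, Ccr10 and Cxcr5 are better known from helper and regulatory T cells. Activated CD8+ T cells and NK cells themselves secrete Ccl3, Ccl4, Ccl5 and Xcl1. Most other chemokines come from stromal, epithelial or myeloid cells.

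The following stretches of the mm9 genome, read 5′ to 3′ on the plus strand, lie within 100 bp of the summit of the sites that carry the differences described below. The first 4 are from sites that ranked higher in WT or from the Ccr7 promoter, and the others from sites that ranked higher in dKO or were found in dKO alone. Capitals mark matches on either strand to 6 motifs, namely the Tcf/Lef core ATCAAAG, the T-box motif AGGTGTGA, the Runx motif TGTGGTT, the Ets motif CCGGAAGT, the AP-1 motif TGANTCA and the Klf motif GGGTGTGG. The Klf and Runx motifs can overlap in TGTGG, and stretches without capitals held no match in the bases shown. At the Cxcr6 promoter only the 88 bases before the transcription start (TSS) are shown, which leave out the summit. Within 100 bp of that summit lay 1 AP-1 match, beyond the bases shown.
Ccr7 at -15.9 kb, chr11:99032153-99032353: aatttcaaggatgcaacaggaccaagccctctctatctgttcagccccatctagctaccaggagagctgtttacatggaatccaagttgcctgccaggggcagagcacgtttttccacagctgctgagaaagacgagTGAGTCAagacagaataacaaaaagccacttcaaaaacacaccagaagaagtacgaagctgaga
Ccr7 promoter, chr11:99016497-99016697: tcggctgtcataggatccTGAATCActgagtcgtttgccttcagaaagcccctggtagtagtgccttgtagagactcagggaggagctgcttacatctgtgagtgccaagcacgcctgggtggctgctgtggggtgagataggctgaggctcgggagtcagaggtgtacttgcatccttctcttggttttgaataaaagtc
Cxcr4 at -19.7 kb, chr1:130508477-130508677: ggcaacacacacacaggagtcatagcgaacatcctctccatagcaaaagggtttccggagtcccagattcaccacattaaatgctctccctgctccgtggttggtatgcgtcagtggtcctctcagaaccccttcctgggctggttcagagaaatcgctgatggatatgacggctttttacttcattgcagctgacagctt
Cxcr6 promoter, chr9:123715507-123715594: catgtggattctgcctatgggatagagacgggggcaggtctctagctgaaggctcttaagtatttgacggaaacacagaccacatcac
Ccl4 promoter, chr11:83475794-83475994: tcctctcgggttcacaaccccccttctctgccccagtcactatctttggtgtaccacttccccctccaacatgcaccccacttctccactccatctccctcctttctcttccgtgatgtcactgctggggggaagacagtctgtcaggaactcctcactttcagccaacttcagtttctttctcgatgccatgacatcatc
Ccl5 at -19.7 kb, chr11:83363669-83363869: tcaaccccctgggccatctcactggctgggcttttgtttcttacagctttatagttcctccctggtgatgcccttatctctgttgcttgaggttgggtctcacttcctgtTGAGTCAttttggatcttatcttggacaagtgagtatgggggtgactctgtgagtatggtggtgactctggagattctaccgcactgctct
Ccl9 at 16.6 kb, chr11:83372295-83372495: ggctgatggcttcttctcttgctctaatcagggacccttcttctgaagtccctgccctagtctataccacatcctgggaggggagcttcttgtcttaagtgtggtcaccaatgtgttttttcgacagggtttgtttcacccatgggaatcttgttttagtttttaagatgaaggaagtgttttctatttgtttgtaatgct
Ccl1 at -34.7 kb, chr11:82027961-82028161: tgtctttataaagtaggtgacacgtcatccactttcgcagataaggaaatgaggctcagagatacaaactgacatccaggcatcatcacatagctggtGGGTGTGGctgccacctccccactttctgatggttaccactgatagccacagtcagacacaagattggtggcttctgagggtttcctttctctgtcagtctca
The AP-1 match lay 37 bp from the summit at Ccr7 -15.9 kb and 10 bp from it at Ccl5 -19.7 kb. None of the 8 stretches held the Tcf/Lef core, which lay within 100 bp of the summit at only 3.81% of all WT and 2.42% of all dKO sites.

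A peak was counted as a ChrAcc site where its pileup, which counts the fragments covering the summit, was at least 4-fold above the local background of the same pool, with p under 1e-05 and q under 0.05. The WT pool held 83923734 fragments and gave 28472 ChrAcc sites, and the dKO pool held 62242963 fragments and gave 24363. Because the pools differ in depth, sites were compared by the percentile of their fold enrichment within their own list, with 100 for the strongest and 0 for no site, and by the pileup per 1000000 fragments of the pool (FPM). Over the 20533 sites shared by the lists (an overlap of at least 1 bp), the median FPM ratio, dKO over WT, was 0.912. Intervals in the text are 95% intervals that cover counting error only. T cell markers had open promoters (6 of 7 genes in WT, 5 of 7 in dKO; the promoter of Thy1 had no site in either list and that of Cd3d none in dKO), whereas those of 3 B cell, 2 NK cell and 1 regulatory T cell marker had no site in either list. The T cell promoter sites were not uniformly strong. In WT they ranked at percentile 4.58 for Cd8a, 6.55 for Cd3d and 26 for Cd3e. Those of Lck, Cd8b1 and Cd3g ranked at 59.2, 59.7 and 63.5 in WT. Among 4 myeloid genes, Itgam had a promoter site in WT alone, at percentile 34.8. At the deleted genes themselves, Tcf7 had 4 sites in its body or within 20 kb in each list and Lef1 had 12 in WT and 9 in dKO, and peaks at these loci do not read out the deletion itself.

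The windows of the chemokine and receptor genes held 77 WT and 75 dKO ChrAcc sites, which merged into 94 sites of the 31898 in the series. The lists shared 57 of these, while 20 came from WT and 17 from dKO only. Summits lay between genes at 55 sites, in introns at 28, in UTRs at 7 and in exons at 4. The 20 sites without a dKO counterpart were 26.0% (Wilson interval 17.5 to 36.7%) of the WT sites, near the 27.6% over all WT sites. The dKO pool is the shallower, and its part in the absence of weak WT sites from the dKO list was not tested. In dKO, the 17 sites without a WT counterpart were 22.7% (14.7 to 33.3%) of the sites, above the 14.4% over all dKO sites, and 5 of the 17 lay in a single cluster of ligand genes described below. With windows of 5 kb the dKO share was 14.7%, so the excess was not seen there. Fold enrichment ranked at least 20 percentile points higher in WT at 7 of the 57 (12.3%; all shared sites, 13.7%) and at least 20 points higher in dKO at another 7 (12.3%, interval 6.08 to 23.2%; all shared sites, 6.75%). This balance depended on the length of the lists: with the 20000 best peaks of each, 4 sites ranked higher in WT and 8 in dKO, and the shares over all shared sites turned to 10.5% and 13.4%. By gene class, the full lists gave the following counts. Of 37 shared sites at receptors, 7 ranked higher in WT and 2 in dKO. Those 7 include sites in the windows of Cxcr5 and Cx3cr1 that lie nearer to the TSS of Bcl9l and of Xirp1. Of 20 at ligands, none ranked higher in WT and 5 in dKO. Of those 5, 4 lay at 1 locus, the cluster from Ccl5 to Ccl4, and the other, in the window of Cxcl9, lies nearer to the TSS of Sdad1. The counts by class stand beside 13.7% higher in WT and 6.75% higher in dKO over all shared sites. Whether the classes differ from all shared sites or from each other was not tested. Ranking by pileup instead of fold enrichment raised the number of shared sites higher in WT from 7 to 12, with 4 of the sites gained near Ccr7 and Cxcr4 and 1 near Cxcr5. By pileup, 14.7% of all shared sites ranked higher in WT.

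**Figure D1:**
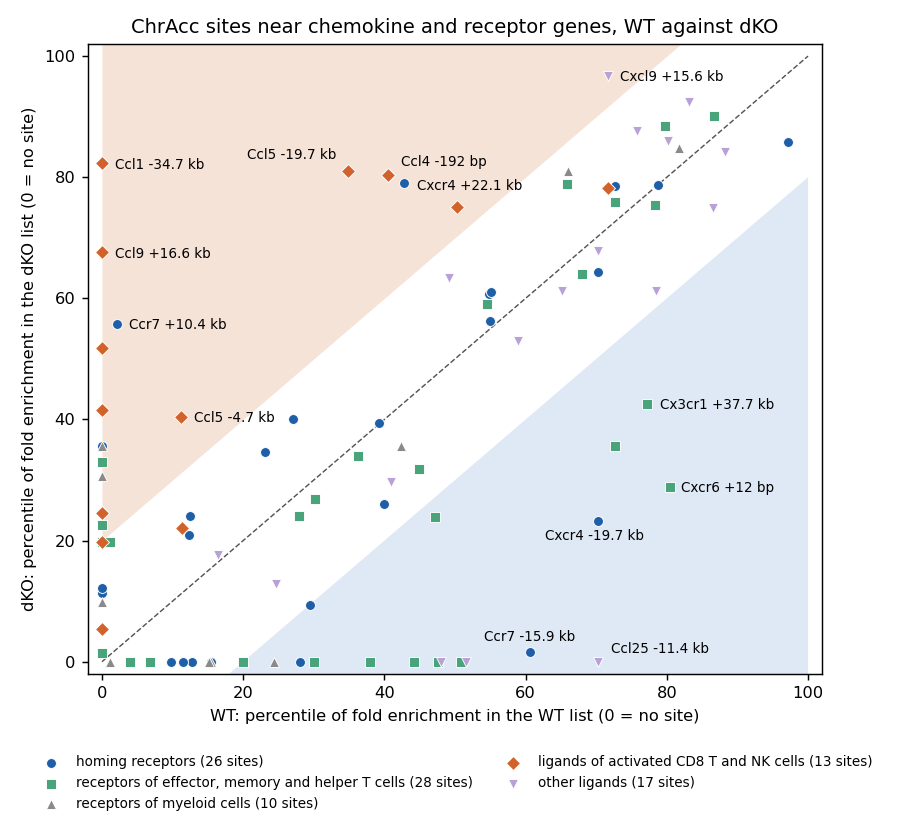
Percentile of fold enrichment of each of the 94 sites in WT (x axis) and dKO (y axis), where 0 stands for no site; shading marks differences of at least 20 points, and colour and shape mark the role of the gene. Ligands of activated CD8 T and NK cells (orange diamonds) sit above the diagonal at all 13 sites, 7 of which have no WT site and so a WT value of 0, and Ccr7 -15.9 kb, Cxcr6 +12 bp and Cxcr4 -19.7 kb sit far below it.

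Fewer of these genes than of genes at large had open chromatin, most clearly at promoters. A ChrAcc site in the body or within 20 kb was present for 28 members in WT (49.1%, interval 36.6 to 61.7%, against 66.1% of all protein-coding genes). In dKO it was present for 29 (50.9%, interval 38.3 to 63.4%, against 63.2%), and this interval includes the share over all genes. The members include ligand genes whose promoters have copies elsewhere in the genome, described below. Promoters, taken as the 1 kb on either side of a TSS, had a site at 9 members in WT (15.8%, interval 8.54 to 27.4%; all genes, 44.3%) and at 8 in dKO (14.0%, interval 7.29 to 25.3%; all genes, 41.2%). Those of Ccr7, Cxcr4, Cxcr6, Ccl4, Ccl25, Ccl27a and Cxcl10 were open in both lists. The Ccl25 site is also a promoter site of the neighbouring gene Elavl1. At Ccr4 the promoter site ranked at percentile 3.91 in WT, with 25 fragments over its summit, and had no dKO counterpart. A further 13 WT and 11 dKO sites in the windows lay at promoters of neighbouring genes alone, such as Lztfl1, Fyco1, Hip1 and Sdad1. The nearest TSS belonged to a member at 65 of the 94 sites.

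**Figure D2:**
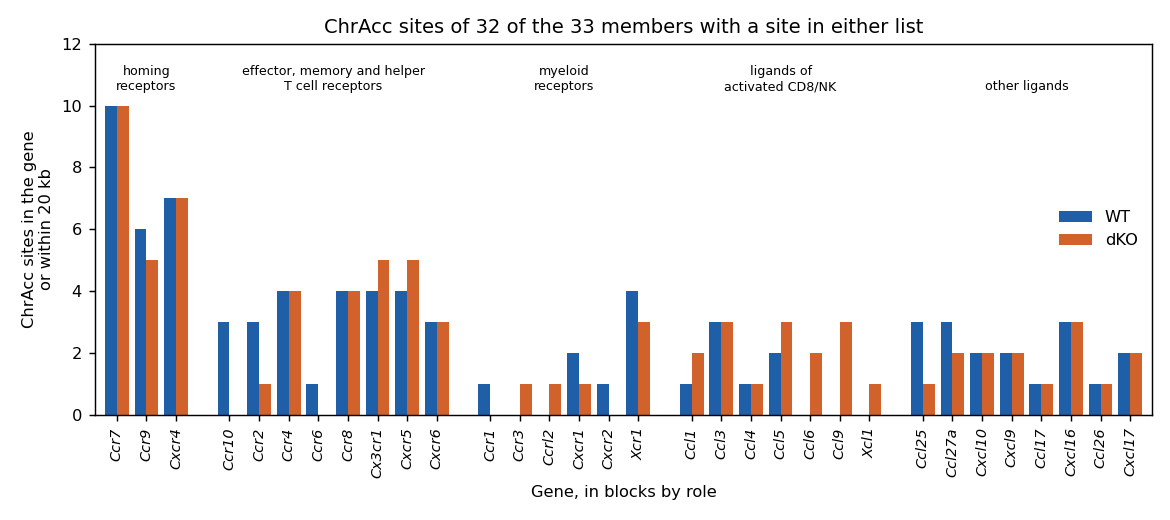
Number of ChrAcc sites in the gene body or within 20 kb (y axis) for 32 of the 33 members with a site in either list, WT in blue and dKO in orange, in blocks by role. Ccr7 and Cxcr4 have the most sites, 10 and 7 in each list, and among the ligands Xcl1, Ccl6 and Ccl9 have sites in dKO alone; windows of neighbouring genes overlap, so a site can be counted for more than 1 gene.

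The homing receptors Ccr7, Ccr9 and Cxcr4 had 26 sites, 18 of them shared, 5 in WT alone and 3 in dKO alone. Shares without a counterpart over all sites were 27.6% for WT and 14.4% for dKO. Ccr7 (chr11:99005510-99016391, minus strand) had the most sites of any member. Its 12 sites comprised 8 shared, 2 found in WT alone and 2 found in dKO alone. The site at -15.9 kb, shown first above, had 129 fragments over its WT summit, or 1.54 FPM, and 21 over its dKO summit, or 0.337 FPM. The ratio was 0.219 (0.131 to 0.35), and the site fell from percentile 60.6 to 1.57. The dKO summit lay 181 bp from the WT summit. At the promoter, summit -206 bp from the TSS, the pileup was 1.37 FPM in WT and 0.948 in dKO (ratio 0.692, 0.497 to 0.955), while its percentile was 70.2 and 64.4.

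Most of the Ccr7 locus was lower in dKO by pileup but not by the rank of fold enrichment. Ranked by fold enrichment, 2 of the 8 shared sites were lower in dKO, against 7 when ranked by pileup and 6 by -log10 p. Between the promoter and the far site, the sites at -8.11, -11.3 and -13.2 kb had ratios of 0.756, 0.611 and 0.617, and their percentiles of fold enrichment were higher in dKO (55.1 and 61.1, 12.3 and 20.9, and 23.1 and 34.6). The ratio was below 1 at 7 of the 8 shared sites, all 7 below the overall median of 0.912, and the median over the 8 was 0.683. The local background from which fold enrichment is computed differed at this locus. It ranged over the Ccr7 sites from 0.0906 to 0.17 FPM in WT and from 0.0518 to 0.0813 in dKO, without overlap, against medians over all sites of 0.0679 and 0.0633. A lower denominator in dKO raises the fold enrichment there at a given pileup.

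The single Ccr7 site with a ratio above 1 lay in the gene's UTR at 10.4 kb from the TSS, with 40 fragments in WT and 46 in dKO (ratio 1.55, 0.993 to 2.43). It rose from percentile 2.1 to 55.8 by fold enrichment. Its shift was smaller by other ranks, 28.4 points by pileup and 42.6 by -log10 p, below those of the sites Ccl4 -192 bp (45.4 and 42.7) and Ccl5 -19.7 kb (42.8 and 44.3). The WT-only sites at 12.2 and 23.4 kb were at percentiles 9.72 and 28.0, those found in dKO only, at 22.4 and 24.1 kb, at 12.2 and 35.7. At 24.1 kb the WT list also held a peak, of 3.67-fold enrichment, just below the threshold of 4.

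Cxcr4 (chr1:130484776-130488870, minus strand) had 7 sites, 6 shared and 1 in WT alone. Its upstream sites at -19.7, -10.5 and -9.33 kb had less signal in dKO. Among them lies the Cxcr4 site of the highest pileup, at -13.7 kb, which did not share this fall in rank, with 146 and 91 fragments, percentiles of 72.7 and 78.5 and a ratio of 0.840 (0.640 to 1.10). The site at -19.7 kb went from 142 fragments and percentile 70.3 in WT to 50 fragments and percentile 23.3 in dKO (ratio 0.475, 0.337 to 0.66). The other pair had ratios of 0.570 (0.368 to 0.867) and 0.629 (0.425 to 0.917), with percentiles of 29.4 and 9.32 at -10.5 kb and of 39.9 and 26.1 at -9.33 kb. A site downstream of the gene, at 22.1 kb, went the other way, from 46 to 66 fragments and from percentile 42.8 to 79.1 (ratio 1.93, 1.31 to 2.88). The promoter site at -358 bp ranked at 54.8 and 60.7 with a ratio of 0.922 (0.665 to 1.27), close to the overall median. The WT-only site in intron 1, at 0.988 kb, ranked at 12.7, and the dKO list held a peak of 3.89-fold enrichment at the same place.

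**Figure D3:**
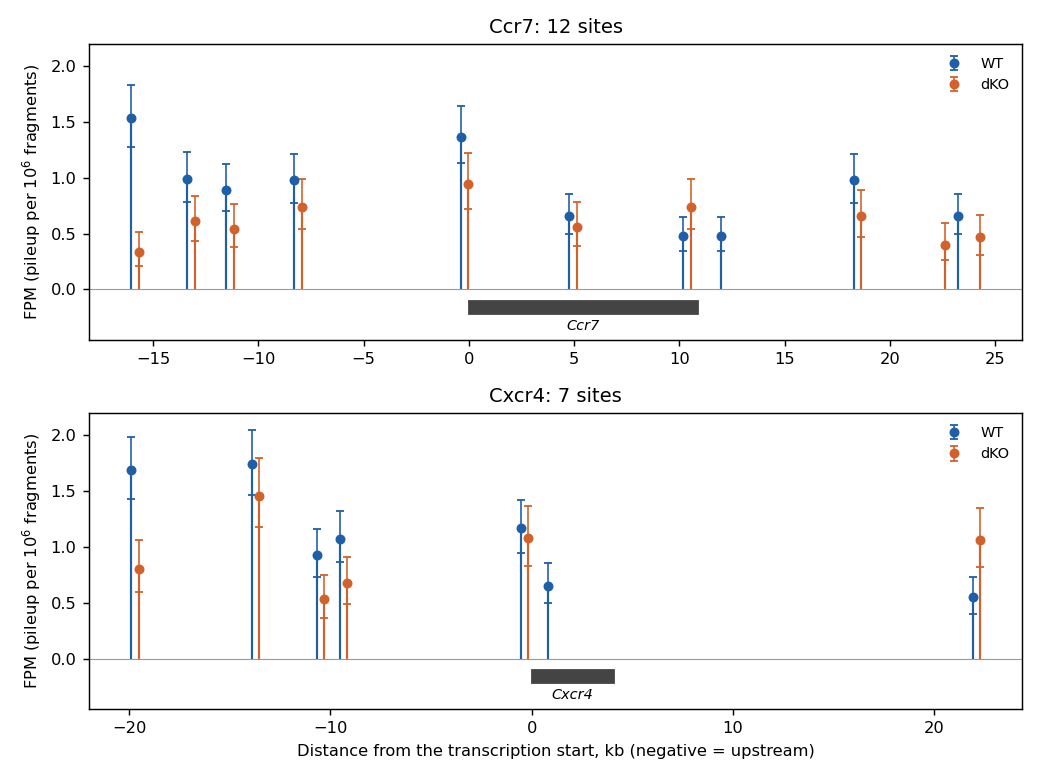
Pileup in FPM, that is per 1000000 fragments (y axis), at each Ccr7 site (top) and Cxcr4 site (bottom) against distance from the TSS in kb (x axis), WT in blue and dKO in orange, drawn side by side for legibility; whiskers are 95% Poisson intervals, grey boxes the genes. At Ccr7 -15.9 kb the pileup is 1.54 in WT and 0.337 in dKO, and at Cxcr4 22.1 kb it is 0.548 and 1.06; the Cxcr4 site at -10.5 kb merges 2 dKO peaks, of which the stronger is drawn.

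Ccr9 had 7 sites, 4 of them shared, with ratios between 0.746 and 1.26. Its annotated body spans 104 kb because of 1 long transcript, and the sites counted upstream of the usual TSS lie in intron 1 of that transcript. The site at -12.7 kb ranked at percentile 78.7 in both lists, with 112 fragments in WT and 87 in dKO. At -3.3 kb the percentiles were 39.2 and 39.4. The strongest site in the window, at percentile 97.2 in WT and 85.8 in dKO, is the promoter of the neighbouring gene Lztfl1. The WT-only and dKO-only sites were weak, with percentiles of 15.5 and 11.5 in WT and 11.3 in dKO. No promoter site of Ccr9 itself was found in either list.

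Receptors of effector, memory and helper T cells, 10 genes, had 28 sites, with 16 shared, 8 in WT alone and 4 in dKO alone. Over all sites, 27.6% of WT and 14.4% of dKO sites lacked a counterpart. Of the 16, 4 ranked at least 20 points higher in WT and none in dKO (all shared sites, 13.7% and 6.75%). Cxcr6 is a receptor of tissue-resident memory cells that binds the membrane-bound chemokine Cxcl16. Its promoter site, summit 12 bp inside the 5′ end, had 90 fragments in WT and 30 in dKO (ratio 0.449, 0.287 to 0.686) and went from percentile 80.5 to 28.9. The other Cxcr6 sites did not follow. The site at 8.11 kb ranked at 86.7 and 90.1 and that at 5.49 kb at 27.9 and 24.1. The other shifts toward WT were at Ccr8 -9.19 kb (47.1 to 23.9; ratio 0.578, 0.354 to 0.921), Cxcr5 16.1 kb (72.6 to 35.7; 0.592, 0.369 to 0.930) and Cx3cr1 37.7 kb (77.2 to 42.6; 0.582, 0.387 to 0.861). The Cxcr5 site lies in the UTR of Bcl9l, and the Cx3cr1 site lies nearer to the TSS of Xirp1. Cx3cr1, the fractalkine receptor of cytotoxic effector cells, had in addition a shared site in its own intron 1, at 13.2 kb, with percentiles of 54.6 and 59.0, and weak dKO-only sites at 28.8 and -6.46 kb, at 19.7 and 22.6.

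Ccr2, the monocyte and T cell receptor for Ccl2, had no promoter site in either list. Ccr10, the receptor for Ccl27, had 3 sites, all in WT alone, at percentiles 37.9, 30 and 20, the first in its own exon. The second lies in intron 1 of Cntnap1, whose TSS is nearer, and the third is a promoter site of Tubg2. A single WT-only site in the window of Ccr6 ranked at 47.6 and lay nearer to Brp44l. Ccr4 kept 3 shared sites upstream of the gene, the strongest at -1.85 kb with percentiles of 65.9 and 78.9. Its dKO-only site at -11.1 kb ranked at 1.38, and the WT list held a peak of 3.85-fold enrichment at the same place. Cxcr5, the follicular homing receptor, kept a strong site at -6.9 kb (79.7 and 88.5). Cxcr3, the receptor for Cxcl9 and Cxcl10, had no peak in either list as deposited.

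The 6 receptors known from myeloid and dendritic cells and granulocytes had 10 sites, of which 3 were shared, 4 were found in WT alone and 3 in dKO alone. For all sites, the shares without a counterpart were 27.6% in WT and 14.4% in dKO. Xcr1, which marks cross-presenting dendritic cells, had the strongest of them. Its site at -10.2 kb ranked at 66.0 in WT and 81.0 in dKO, and the site at 10.1 kb (81.7 and 84.9) is the promoter of Fyco1. All sites found in 1 list alone were below the middle of their list, the highest being Ccrl2 10.9 kb at 35.7 in dKO, Ccr3 17.2 kb at 30.6 in dKO and Ccr1 -17.7 kb at 24.3 in WT. None of the 6 had a promoter site. Cxcr7, a scavenger of Cxcl12, had no site at all.

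**Figure D4:**
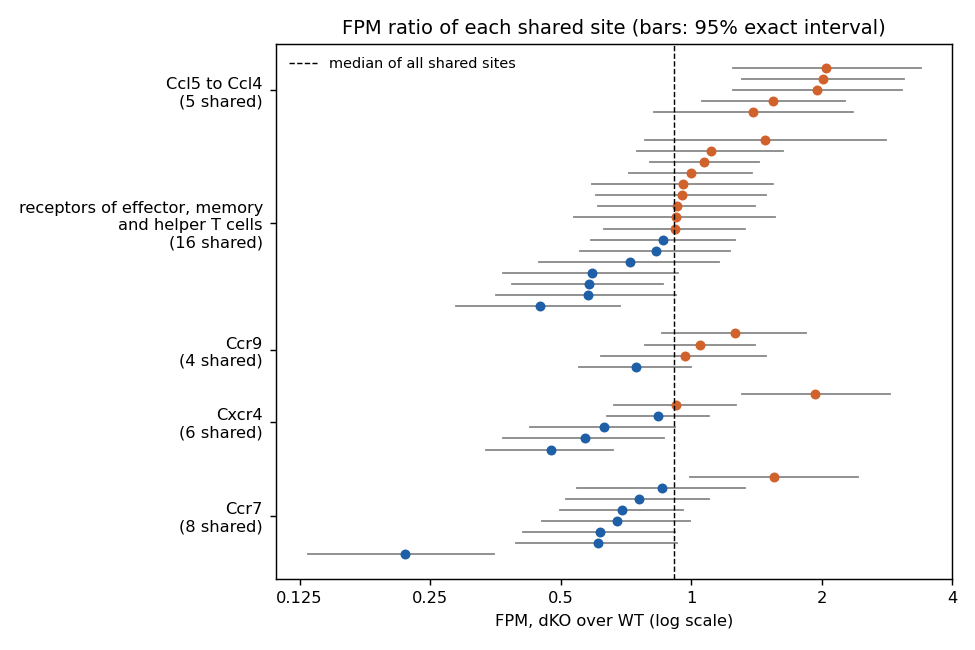
FPM ratio, dKO over WT, on a log axis, for each shared site near Ccr7, Cxcr4, Ccr9, the receptors of effector, memory and helper T cells, and the ligand genes from Ccl5 to Ccl4; bars are 95% exact intervals for counting error, and points are orange above and blue below the overall median of 0.912 (dashed). All 5 ligand sites lie above the median and 7 of 8 Ccr7 sites below it.

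The list of ligands of activated CD8 T and NK cells held Ccl3, Ccl4, Ccl5, Xcl1 and Ccl1, and also Ccl6 and Ccl9, which are better known from myeloid cells. The 7 genes had 13 sites, 6 shared, 7 in dKO alone and none in WT alone (14.4% of all dKO sites lacked a WT counterpart). Of the 6 shared sites, 4 ranked at least 20 points higher in dKO (all shared sites, 6.75%), and all 4 lie in the cluster from Ccl5 to Ccl4. The list was chosen with earlier results of these data known, so its counts are a description and not a test. Of the 7 sites in dKO alone, 5 lie at Ccl9, Ccl6 and Ccl1. Of the 13 sites, 10 lie in the cluster that runs over 139 kb of chromosome 11 from Ccl5 through Ccl9, Ccl6 and Ccl3 to Ccl4. The cluster held 5 WT and 10 dKO sites. The 5 shared sites ranked higher in dKO, by 10.7 points or more, and the other 5 have no WT rank to compare. Its sites are neighbours at 1 locus and are not independent of each other. Ratios at the 5 shared sites ran from 1.39 to 2.05.

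At the promoter of Ccl4 (chr11:83476086-83478185, plus strand), which encodes an attractant of T cells and monocytes, the summit lay -192 bp from the TSS. It had 39 fragments in WT and 58 in dKO, which is 0.465 and 0.932 FPM (ratio 2.01, 1.31 to 3.09), and the percentile rose from 40.5 to 80.4. Ccl3, a related attractant, has its sites downstream of the gene. That at 8.94 kb went from 55 to 63 fragments and from percentile 50.3 to 75.1 (ratio 1.54, 1.06 to 2.26), and that at 9.68 kb from 31 to 32 fragments and from 11.3 to 22.0 (ratio 1.39, 0.822 to 2.36). The interval of this last ratio includes the overall median.

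Ccl5 (chr11:83339280-83344020, minus strand), a chemokine whose mRNA memory CD8+ T cells keep in store, had 3 upstream sites in dKO. The farthest, at -19.7 kb, went from 36 to 52 fragments and from percentile 34.8 to 81.0 (ratio 1.95, 1.25 to 3.07). Its summits in the lists lay 159 bp apart. The nearest, at -4.68 kb, went from 29 to 44 fragments and from 11.2 to 40.4 (ratio 2.05, 1.25 to 3.39). Between them, at -6.7 kb, a dKO-only site ranked at 24.5. The Ccl5 promoter had no site in either list. Downstream of Ccl9, which together with Ccl6 is a ligand of Ccr1, dKO-only sites ranked at 67.6 (16.6 kb), 51.8 (14.9 kb) and 19.7 (6.07 kb), and a dKO-only site upstream of Ccl6, at -12.6 kb, ranked at 5.39. Neither Ccl9 nor Ccl6 had a WT peak as deposited.

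**Figure D5:**
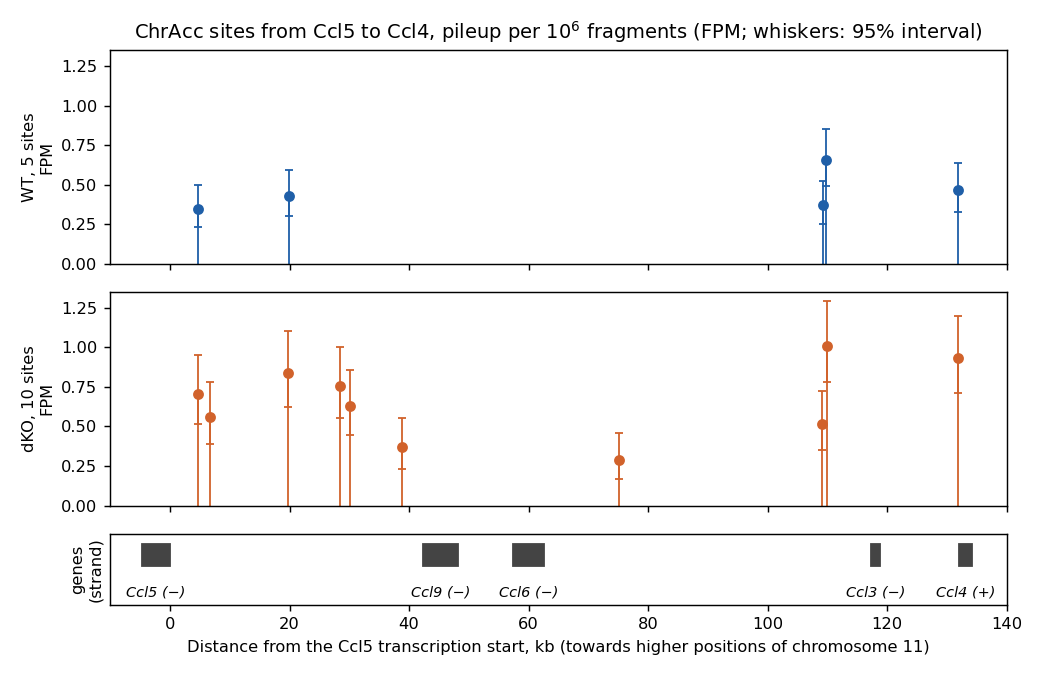
Pileup in FPM, that is per 1000000 fragments (y axis), at the ChrAcc sites from Ccl5 to Ccl4 in WT (top, 5 sites) and dKO (middle, 10 sites), with the genes below, against distance in kb from the Ccl5 TSS; whiskers are 95% Poisson intervals. At the rightmost site, the Ccl4 promoter, the pileup is 0.465 FPM in WT and 0.932 in dKO, and the 5 sites without a WT counterpart lie around Ccl5, Ccl9 and Ccl6.

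Outside the cluster, Ccl1, a ligand of Ccr8, had the highest-ranking dKO-only site of all members. It lies at -34.7 kb, within intron 7 of a non-coding Ccl1 transcript that widens the annotated body to 129 kb, and ranked at percentile 82.3 with 53 fragments. A shared Ccl1 site at -3.62 kb ranked at 71.7 and 78.3 (ratio 1.11, 0.745 to 1.63). Xcl1 (chr1:166861775-166865658, minus strand), which attracts Xcr1-bearing dendritic cells, had a single site, in its intron 1 at 1.57 kb. It was found in dKO alone, with 32 fragments at percentile 41.6.

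The interferon-induced ligands of Cxcr3 had 4 sites, all shared. At Cxcl10 the promoter site, -76 bp from the TSS, ranked at 40.9 and 29.6 (ratio 0.789, 0.489 to 1.25) and the site at -4.87 kb at 24.7 and 12.9. At Cxcl9, 15.6 kb from the TSS, a site beside Sdad1 rose from 71.6 to 96.7 with 95 and 109 fragments (ratio 1.55, 1.16 to 2.06), the highest rank of any site here in dKO. By pileup its shift was 17.2 points, below the 20 used as the limit.

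The homeostatic ligands of lymphoid organs had 6 sites near 2 of the 8 genes. Ccl25, the ligand of Ccr9, had a promoter site at -45 bp with percentiles of 70.2 and 67.8 (108 and 75 fragments). That site is also a promoter site of the neighbouring gene Elavl1, so it cannot be assigned to Ccl25 alone. The WT-only sites of Ccl25 at -11.4 and -2.56 kb, at 70.3 and 51.6, both lie inside intron 1 of Elavl1. Ccl27a, a ligand of Ccr10, had a promoter site at -62 bp with percentiles of 80.2 and 85.9. The other sites in its window, a shared site at 14.7 kb and a WT-only site at 14 kb, are promoter sites of the neighbouring gene Galt. Ccl19 and Ccl21a, the ligands of Ccr7, had no site, nor had Ccl21b, Ccl21c, Cxcl12 and Cxcl13. For the promoters of Ccl19, Ccl21a, Ccl21b, Ccl21c, Ccl27a and Ccl27b, all 501 bp around the TSS have a copy of at least 98% identity elsewhere in the genome, so reads there may not map to 1 place, and an absent site is uncertain. Of these promoters, that of Ccl27a nevertheless had a site in both lists. No other member had such a copy over 100 bp or more.

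Among the remaining ligands, the 5 neutrophil chemokines (Cxcl1, Cxcl2, Cxcl3, Cxcl5 and Cxcl15) and the 6 monocyte and eosinophil chemokines (Ccl2, Ccl7, Ccl8, Ccl11, Ccl12 and Ccl24) had no site in either list. Of the ligands of Ccr4 and Ccr6, Ccl17 had 1 shared site at 2.53 kb (49.2 and 63.4), and Ccl20 and Ccl22 had none. Cxcl16, the ligand of Cxcr6, had 3 shared sites in its window, 2 of them at the neighbouring Med11 promoter, and Cx3cl1 had none. Sites in the windows of Cxcl17 and Ccl26 were shared and within 20 points, and Cxcl14 and Ccl27b had none. In all, 24 members had no site in either list, and the same 24 had no peak in either list before the criteria were applied.

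The core motif of the missing factors was rare at these sites, as it was over all sites. Within 100 bp of the summit, ATCAAAG on either strand occurred at 2 of 77 WT sites (2.6%; all WT sites, 3.81%) and at 2 of 75 dKO sites (2.67%; all dKO sites, 2.42%). Both lists had it at the same places, 32 bp from the summit of the Cx3cr1 site at 37.7 kb and 94 bp from that of the Cxcl16 site at 24.3 kb, which lies in an exon of Arrb2. None of the 20 sites found in WT alone held it, which allows a share of up to 15.0%, taking 3 as the count that 0 allows. Among all sites found in WT alone it occurred at 6.98%. None of the 17 sites found in dKO alone held it either, which allows up to 17.6%. The AP-1 motif occurred at 9.09% of WT and 6.67% of dKO sites (all sites, 6.09% and 6.25%), the Runx motif at 11.7% and 9.33% (9.67% and 10.6%), the T-box motif at 2.6% and 2.67% (0.913% and 0.924%), the Ets motif at 3.9% and 2.67% (3.76% and 4.11%), and the Klf motif at 2.6% and 4% (2.91% and 3%). For each of the 6 motifs and both lists, the share over all sites lay within the Wilson interval of the share in the windows.

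Downstream of the receptors, the signalling genes were open in both genotypes. Of 19 genes for the G protein subunits, Dock2 and Rac proteins, PI3-kinases, arrestins, kinases and Rgs proteins that transmit or end the chemokine signal, 17 had a promoter site in WT and 17 in dKO (89.5%, against 44.3% and 41.2% of all genes), the exceptions being Adrbk1 and Vav1 in both lists. Their windows held 106 WT and 83 dKO sites, of which 29 had no dKO and 5 no WT counterpart. These are 27.4% of the WT sites, near the 27.6% over all WT sites, and 6.02% of the dKO sites, below the 14.4% over all dKO sites. The promoter of Rgs1, a negative regulator of chemokine receptor signalling, ranked at 73.5 and 88.2, and that of Rgs2 at 68.1 and 44.8. In contrast, 6 chemokine and receptor genes with other symbols (Pf4, Ppbp, Ccrl1, Ccbp2, Darc and Cmklr1) had no promoter site in either list and 3 WT and 2 dKO sites in their windows.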

How the data were processed

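The authors aligned DNase-seq reads to mm9 with Bowtie2 2.2.5, kept reads with a MAPQ above 10, pooled 3 WT and 2 dKO replicates, and called peaks on each pool with MACS2 2.1.1 (2.1.1.20160309 in the file headers) without a control library. Per peak, the deposited lists give the pileup, a signal counted in fragments and unscaled, the fold enrichment, a ratio of pileup to the background that MACS2 estimated locally in that pool, and the −log10 p-value and −log10 q-value of the MACS2 test. Per the file headers each pool was entered as 2 copies of its alignments, so that the fragments before filtering were 2.0 times those kept, and 1 fragment was kept per position; the kept fragments (83923734 in WT, 62242963 in dKO) were taken as the depth. The local background was computed here as (pileup + 1)/(fold enrichment) - 1.

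ChrAcc sites, windows, promoters (within 1 kb of the TSS of a protein-coding transcript), sharing and percentiles were computed as stated in the text with Python 3.11.15, pandas 2.3.3, numpy 2.4.6 and scipy 1.17.1; the steps were tested on simulated data. Genes came from the gencode annotation of NCBIM37 (mm9), which contains every peak. Cxcl11 is not protein-coding in it, and Ccl25 has 2 gene identifiers counted as 1 gene. Sequences were read with pysam 0.24.0 and samtools 1.23.1, copies of promoters searched with blastn 2.17.0, and plots drawn with matplotlib 3.10.9. Shares carry 95% Wilson intervals, pileups exact Poisson intervals and pileup ratios exact conditional binomial intervals, all for counting error only. The upper limits given for a motif count of 0 are not Wilson limits but 3 divided by the number of sites. Amplified fragments without molecular identifiers are not independent molecules. A site was assigned to the member with the nearest TSS among those whose window held it, and distances are negative upstream of that TSS. Named sites were all promoter sites, the 5 strongest sites of each list without a counterpart and the 5 shared sites with the largest shift in each direction whose nearest gene is a member, and the strongest or most shifted sites of Ccr7, Ccr9, Cxcr4, Cxcr3, Ccr2, Cx3cr1, Ccl3, Ccl4, Ccl5 and Xcl1; the other sites were named in addition, with their values known. Results of 1 member and 1 marker gene are not reported here by name, and totals include that member. The members, lists of roles, pathway genes, markers and motifs were chosen with earlier results of these data known. Reads per replicate and the authors' differential test were not analysed here.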

Additional observations from a re-analysis of the deposited data

How the results depend on the processing

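No paired analysis was possible because the peak lists used here were called on pooled replicates and hold no value per replicate, and for the same reason no replicate was left out. The shares of WT and dKO sites without a counterpart stayed within the intervals given for them under every setting that was tried on them, namely from 17.9 to 27.5% for WT and from 14.7 to 25.8% for dKO. When each list was reduced to its 20000 best peaks by -log10 p the order turned, with 17.9% for WT and 25.8% for dKO, while over all sites the shares were 19.7% and 18.9%. With 5 kb windows the dKO share was 14.7%, against 14.4% over all sites. Of 80 recomputed counts and shares, 59 kept their size, counts to within 1.5 times, and 21 did not. A minimum fold enrichment of 8 left 40 WT and 36 dKO sites, 5 promoters in each list, and 1 WT and 5 dKO sites from Ccl5 to Ccl4. Of its 29 shared sites, 3 ranked higher in WT and 6 in dKO (all shared sites, 19.8% and 11.5%). With the 20000 strongest peaks, the cluster had 2 WT sites, and of 46 shared sites 4 ranked higher in WT and 8 in dKO (all shared sites, 10.5% and 13.4%). A window of 5 kb held 40 WT and 34 dKO sites, with 2 WT and 3 dKO in the cluster. Of its 29 shared sites, 2 ranked higher in WT and 3 in dKO. One of 50 kb held 140 and 136, and of its 106 shared sites 17 ranked higher in WT and 13 in dKO. For both windows the shares over all shared sites were 13.7% and 6.75%. Ranking by pileup gave 12 of 57 shared sites higher in WT (all shared sites, 14.7%), and a limit of 30 points gave 4 of 57 higher in dKO (all shared sites, 2.66%). None of the 14 shifts of at least 20 points changed direction when sites were ranked by pileup or by -log10 p, but of all 57 shared sites 12 changed direction by pileup, 5 of them near Ccr7, and 10 by -log10 p, 4 of them near Ccr7. Restricting the sites to those with a member as nearest gene, an alternative chosen after seeing the data, gave 19.2% for WT and 23.2% for dKO. Within 50 bp of the summit the AP-1 motif occurred at 3.9% of WT and 2.67% of dKO sites and the T-box motif at none. The lists were not compared at matched depth.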

Other observations

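Deposited peaks below the criteria for a ChrAcc site numbered 4 in WT and 1 in dKO in these windows. Apart from those at Ccr7, Ccr4 and Cxcr4 that coincide with a site of the other list, they were WT peaks at Cxcr5, 8.89 kb from the TSS, with 3.87-fold enrichment, and at Ccr9, -6.3 kb from it, with 2.71-fold enrichment, and neither overlapped a dKO peak.

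Around Cxcr4 the local background ran from 0.0612 to 0.143 FPM (pileup per 1000000 fragments of the pool) in WT and from 0.072 to 0.122 in dKO, against medians of 0.0679 and 0.0633 over all sites; the site at 22.1 kb was lowest in each list, and in WT the only one below the median. Near Ccr9 it reached 0.106 in each list. At Ccl5 it ran from 0.0522 to 0.0618 in WT and from 0.0518 to 0.0794 in dKO.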
